A study of Mus musculus with 12 samples.

Results

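A set of 9 genes of hepatic stellate cells and of fibrosis was followed through septic liver with and without dichloroacetate (DCA): Timp1, Col1a1, Col1a2, Col3a1, Lrat, Des, Acta2, Pdgfrb and Dcn. They were taken by their symbols, with earlier results of these data known, and are 9 of the 25611 genes in the table of read counts. RNA-seq was performed on whole liver of 12 male C57BL6J mice, 8 to 10 weeks old, with 4 mice in each of 3 groups. Sham mice had the abdomen opened and closed, and septic mice underwent cecal ligation and puncture (CLP), in which the cecum is tied off and pierced so that gut bacteria leak into the abdomen. The CLP+DCA mice were septic mice injected at 24 hr with 25 mg/kg DCA, an inhibitor of the pyruvate dehydrogenase kinases. Every animal received 1 ml of saline under the skin, and all livers were collected 30 hr post-surgery. What the sham and CLP mice were injected with at 24 hr, if anything, is not given in the sources used here. No group carried a transgene or a deletion, and each mouse was 1 replicate.

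Hepatic stellate cells lie between the sinusoidal endothelium and the hepatocytes and store vitamin A as retinyl esters. In an injured liver they can become myofibroblasts, which contract, divide in response to platelet-derived growth factor and secrete fibrillar collagen. Portal fibroblasts, vascular smooth muscle and mesothelium express several of the same genes, so that no single gene of the list marks stellate cells alone. The 9 genes fall into 4 roles. Col1a1 and Col1a2 encode the 2 chains of type I collagen, Col3a1 encodes type III collagen and Dcn encodes decorin, a proteoglycan that binds collagen fibrils. Timp1 encodes a secreted inhibitor of matrix metalloproteinases. Lrat encodes lecithin retinol acyltransferase, which makes the stored retinyl esters, Pdgfrb encodes a platelet-derived growth factor receptor and Des encodes desmin, an intermediate filament of stellate cells and of muscle. Acta2 encodes smooth muscle alpha-actin, the contractile actin of myofibroblasts and of vessel walls.

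The sequences just upstream of 3 of these genes are shown because Timp1 had a sham to CLP difference larger than that of any collagen gene, whereas Col1a2 and Col3a1 had nearly the same ratio to each other in every sham mouse. Each is the 250 bases before the transcription start in the RefSeq promoter table of GRCm38.p6, written 5′ to 3′ on the gene's strand, with motif matches in capitals. They lie at chrX:20869916-20870165 (plus strand) for Timp1, chr6:4505368-4505617 (plus strand) for Col1a2 and chr1:45311288-45311537 (plus strand) for Col3a1.

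Timp1: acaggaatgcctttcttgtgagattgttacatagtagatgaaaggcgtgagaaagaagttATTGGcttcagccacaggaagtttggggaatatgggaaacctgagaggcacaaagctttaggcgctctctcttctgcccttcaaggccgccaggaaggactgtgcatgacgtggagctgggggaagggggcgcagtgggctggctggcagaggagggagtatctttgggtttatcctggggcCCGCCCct

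Col1a2: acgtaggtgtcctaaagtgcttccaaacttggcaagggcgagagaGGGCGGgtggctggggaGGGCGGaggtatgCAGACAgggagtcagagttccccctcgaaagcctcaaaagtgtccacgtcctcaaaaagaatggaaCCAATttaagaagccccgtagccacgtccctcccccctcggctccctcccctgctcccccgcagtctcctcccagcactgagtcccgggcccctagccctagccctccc

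Col3a1: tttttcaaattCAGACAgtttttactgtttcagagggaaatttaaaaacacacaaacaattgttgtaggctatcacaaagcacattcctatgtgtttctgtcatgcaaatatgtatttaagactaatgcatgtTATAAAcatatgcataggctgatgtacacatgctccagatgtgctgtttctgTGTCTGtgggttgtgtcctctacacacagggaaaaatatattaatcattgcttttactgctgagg

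The motifs searched on both strands were the TATA box TATAAA, the GC box GGGCGG, the CCAAT box CCAAT, the AP-1 site TGANTCA, the STAT site TTCNNNGAA, the SMAD element CAGACA and the CArG box CCWWWWWWGG. In these letters N is any base and W is A or T, and only exact matches were counted. Capitals in Timp1 mark a CCAAT box and, 8 to 3 bases before the start, a GC box, both on the opposite strand. Col1a2 held 2 GC boxes, 1 SMAD element and 1 CCAAT box, whereas Col3a1 held a TATA box and 2 SMAD elements, 1 on each strand. The SMAD element occurred in 17.1% of the 32851 promoters of the table, the GC box in 32.7%, the CCAAT box in 33.8% and the TATA box in 12.4%. Letters of the AP-1 site (6.75% of promoters), the STAT site (7.02%) and the CArG box (1.47%) were not in these 3 windows. The table held 6 of the 9 genes, and the windows of Lrat, Des and Acta2 held no exact match to the AP-1 site, STAT site or CArG box either. Lrat held a GC box and a CCAAT box, Des 2 GC boxes and Acta2 a SMAD element. Letters close to a motif, such as ccctatatgg in the Acta2 window beside the CArG box, were not counted.

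The authors deposited unnormalized read counts, with 24436513 to 44266819 reads assigned to genes in each library. Levels are given as CPM, the counts of a gene per 1000000 counted reads, after TMM scaling of the library sizes. Differences are log2 fold changes with their standard errors (SE) from edgeR's quasi-likelihood test in a single fit of all 12 mice, with p-values adjusted by Benjamini-Hochberg over the 13190 genes that passed the low-count filter. All 9 genes passed it. Alb, the main plasma protein of hepatocytes, had mean levels of 46672, 21571 and 26339 CPM in sham, CLP and CLP+DCA, so that hepatocyte RNA was abundant in all groups.

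A pair of septic mice stood apart. In CLP replicate 3, all 15 skeletal muscle markers were at their highest level of the 12 mice, with a summed level of 2852 CPM against 3.90 to 7.37 CPM in the other 11. All 7 vascular smooth muscle markers and 8 of 11 portal fibroblast and mesothelium markers were also highest there. In CLP+DCA replicate 3, the summed level of 11 neutrophil-associated genes was 9630 CPM, against 929 to 1773 CPM in the other CLP+DCA mice, 3514 to 13533 CPM in CLP and 432 to 485 CPM in sham. Most of this sum was Lcn2, which hepatocytes also express. Leaving that mouse out of the fit raised the number of genes called in CLP versus sham from 367 to 3157, although it belongs to neither group. Results that rest on these mice are given with and without them.

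**Figure D1:**
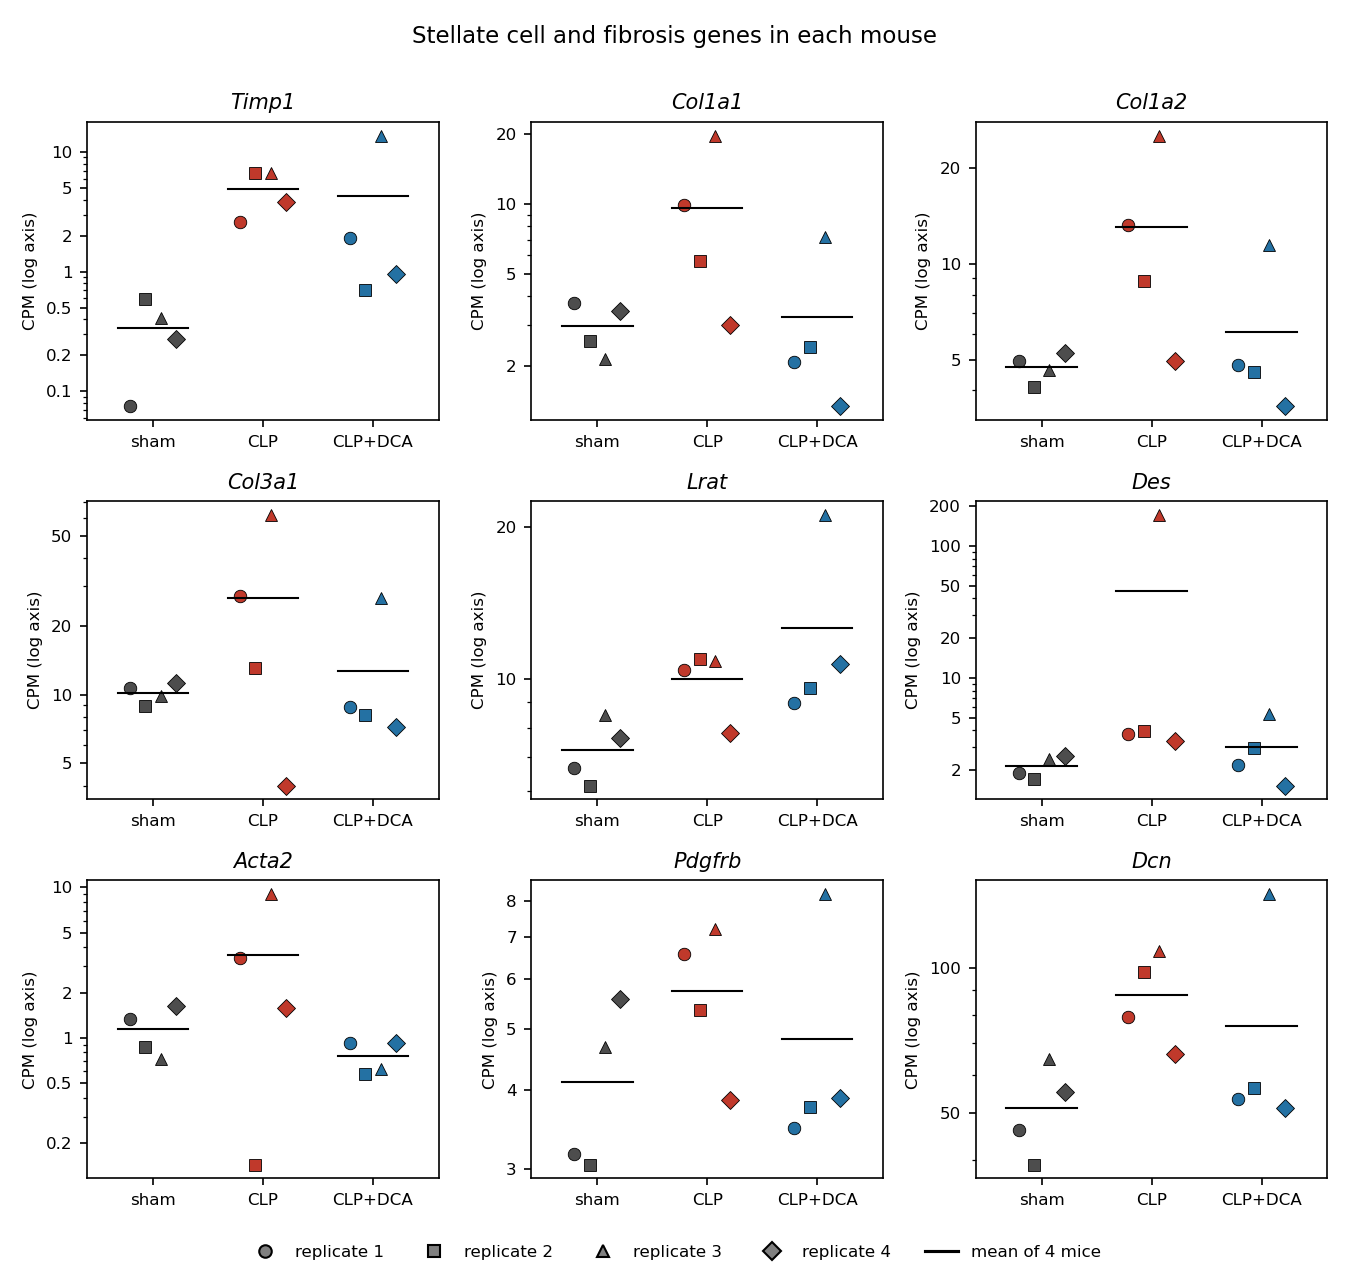
Level of each of the 9 genes in each mouse, in CPM on a log axis, by group, with the marker shape giving the replicate number and the line the mean of 4 mice. CLP replicate 3 stood at 172 CPM for Des against 3.32 to 3.93 CPM in the other CLP mice, and CLP+DCA replicate 3 was the highest of its group for every gene but Acta2.

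Every gene of the list had a higher mean in CLP than in sham, yet none passed the FDR of 0.05 with all 12 mice in the fit. Called in CLP versus sham were 0 of 9 genes by edgeR's quasi-likelihood test, where 2.78% of all tested genes were called. At an unadjusted p under 0.05, 6 genes were higher in CLP (Timp1, Col1a1, Col1a2, Des, Acta2 and Dcn), where 15.5% of all genes were. The 4 CLP mice lay above the 4 sham mice without overlap in 3 of 9 genes (Timp1, Des and Dcn), and 12.2% of all genes did so. Without CLP replicate 3 the same 3 genes were free of overlap, and 18.7% of all genes lay higher in this way. The median log2 fold change of the 9 genes was 1.47, and that of all genes 0.02. Without CLP replicate 3 the median of the 9 genes was 0.66, with 0 of them and 7.46% of all genes called by edgeR. Other tools called more of them: DESeq2 called 3 with all 12 mice and 5 with the 8 mice compared, voom with sample quality weights called 6, and edgeR with the 8 mice compared called 3, where 10.2%, 18.8%, 26.2% and 18.3% of all genes were called. Without CLP+DCA replicate 3, edgeR called 6 of the 9 genes and 23.8% of all genes, and without both replicate 3 septic mice 6 of the 9 and 31.1% of all genes. In a piece of whole liver, more cells of a type and more RNA per cell cannot be told apart.

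Timp1 (NCBI Gene 21857, chromosome X from 20870166 to 20874737 in mm10) showed the clearest separation of the list. Sham mice 1 to 4 had 0.0744, 0.594, 0.412 and 0.274 CPM, from 2 to 24 reads. In CLP the 4 mice had 2.604, 6.70, 6.67 and 3.82 CPM, from 85 to 276 reads. In CLP+DCA they had 1.92, 0.706, 13.7 and 0.954 CPM, from 21 to 507 reads. Every septic mouse, treated or not, lay above every sham mouse. For the treated mice the margin was narrow, with 0.706 CPM from 21 reads in CLP+DCA replicate 2 and 0.594 CPM from 24 reads in sham replicate 2. The separation of these 2 mice thus rested on few reads. In CLP+DCA, 3 of the 4 mice lay below every CLP mouse while the remaining mouse had the highest level of all 12. Mean levels were 4.95 ± 2.07 CPM in CLP against 0.338 ± 0.220 CPM in sham (SD, n = 4 per group), and the log2 fold change was 3.81 (SE 0.97, edgeR's quasi-likelihood test, adjusted p = 0.0568). Without CLP+DCA replicate 3 the difference was 3.80 with a smaller error (SE 0.51) and passed the FDR (adjusted p = 0.00180 from the same edgeR test), and without CLP replicate 3 it was 3.62 (SE 1.04, adjusted p = 0.0575 by edgeR). Timp1 was also the 1 gene of the list called without CLP+DCA replicate 4, where 3.92% of all genes were called. The gene lies within Syn1 on the opposite strand, with 0 exonic bases in common.

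The type I collagen genes had similar patterns across the mice. Col1a1 (NCBI Gene 12842, chromosome 11 from 94936224 to 94953042) had 3.72, 2.55, 2.15 and 3.45 CPM in the 4 sham mice, 9.91, 5.70, 19.8 and 3.01 CPM in CLP, and 2.08, 2.42, 7.18 and 1.34 CPM in CLP+DCA. Col1a2 (NCBI Gene 12843, chromosome 6 from 4505618 to 4541543) had 4.95, 4.11, 4.65 and 5.23 CPM in sham, 13.2, 8.81, 25.2 and 4.94 CPM in CLP, and 4.82, 4.57, 11.5 and 3.56 CPM in CLP+DCA. For both genes CLP replicates 1, 2 and 3 lay above all sham mice and CLP replicate 4 lay among them, so that the groups overlapped. The log2 fold change in CLP versus sham was 1.70 for Col1a1 (SE 0.59, edgeR adjusted p = 0.0988) and 1.47 for Col1a2 (SE 0.47, edgeR adjusted p = 0.0825). Both were smaller without CLP replicate 3, when the differences were 1.08 and 0.93 (edgeR adjusted p = 0.197 and 0.144). Without CLP+DCA replicate 3 they stayed at 1.71 and 1.48 and passed the FDR (edgeR adjusted p = 0.0303 and 0.0249). With both mice left out they were 1.09 and 0.94 and also passed (edgeR adjusted p = 0.0396 and 0.0199).

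Col3a1 (NCBI Gene 12825, chromosome 1 from 45311538 to 45349706) spread further within CLP than either chain of type I collagen. Its levels were 10.7, 8.96, 9.91 and 11.2 CPM in sham, 27.1, 13.1, 61.9 and 4.00 CPM in CLP, and 8.84, 8.20, 26.5 and 7.22 CPM in CLP+DCA. CLP replicates 1, 2 and 3 were above all sham mice, CLP replicate 4 was below all of them, and 3 of the 4 CLP+DCA mice were below all sham mice as well. The log2 fold change in CLP versus sham was 1.39 (SE 0.66, edgeR adjusted p = 0.190) with all mice and 0.54 (SE 0.57, edgeR adjusted p = 0.532) without CLP replicate 3. Dcn (NCBI Gene 13179, chromosome 10 from 97479500 to 97518163), the remaining matrix gene, varied less: 46.1, 39.1, 64.9 and 55.5 CPM in sham, 79.3, 98.5, 109 and 66.3 CPM in CLP, and 53.4, 56.5, 143 and 51.3 CPM in CLP+DCA. All CLP mice lay above all sham mice, by a narrow margin between 64.9 and 66.3 CPM. Its log2 fold change was 0.78 (SE 0.32, edgeR adjusted p = 0.142), and 0.78 (SE 0.17, edgeR adjusted p = 0.0110) without CLP+DCA replicate 3. The CLP mean of Dcn was 88.2 CPM with CLP replicate 3 and 81.4 CPM without it, against 51.4 CPM in sham. In the fit without CLP replicate 3, edgeR called 0 of the 9 genes.

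The ratio of Col1a2 to Col3a1, taken per kb of exon so that levels of different genes can be compared, was nearly the same in the 4 sham mice. Exon lengths were 5930 bases for Col1a1, 5348 for Col1a2 and 5564 for Col3a1, from protein-coding transcripts of GENCODE M21. In sham, Col1a2 stood at 0.480, 0.477, 0.489 and 0.483 of Col3a1. In CLP the ratio was 0.506, 0.699, 0.424 and 1.29, and in CLP+DCA 0.567, 0.580, 0.450 and 0.513. The sham mice thus lay within a narrow band that only CLP replicate 3 and CLP+DCA replicate 3 undershot, whereas the other 6 septic mice lay above it. The sham ratios rested on 133 to 191 reads of Col1a2 and 288 to 411 reads of Col3a1. Their counting error was not estimated, so that septic ratios close to the band, such as 0.506 and 0.513, cannot be told from it. The highest ratio, in CLP replicate 4, came from 110 reads on Col1a2 and 89 on Col3a1. Col1a1 stood at 0.417 to 0.678 of Col1a2 in sham, 0.549 to 0.706 in CLP and 0.338 to 0.565 in CLP+DCA, ranges that overlap. In Col3a1, 141 exonic bases are shared with a miRNA gene on the same strand.

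**Figure D2:**
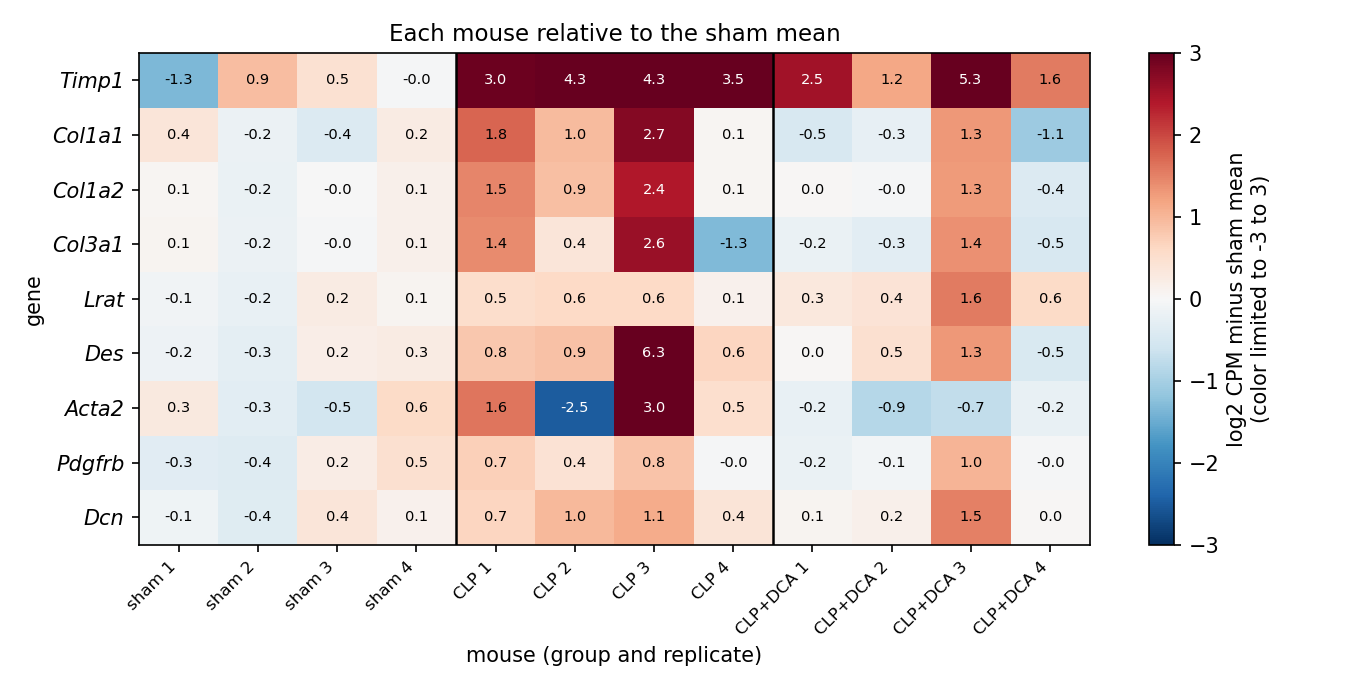
Log2 CPM of each gene in each mouse minus the mean log2 CPM of the 4 sham mice, with the color scale limited to -3 to 3 and the value written in each cell. CLP replicates 1 and 3 lay above all sham mice in 9 of 9 genes, CLP replicate 4 in 3 of 9, and CLP+DCA replicate 3 in 8 of 9.

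Among the markers of stellate cells, Lrat (NCBI Gene 79235, chromosome 3 from 82892582 to 82903974) had its highest mean in CLP+DCA. It had 6.66, 6.14, 8.48 and 7.63 CPM in sham, 10.4, 10.96, 10.8 and 7.81 CPM in CLP, and 8.94, 9.58, 21.2 and 10.7 CPM in CLP+DCA. All 4 CLP+DCA mice lay above all sham mice, whereas CLP replicate 4 lay within the sham range. The log2 fold change was 0.47 in CLP versus sham (SE 0.25, edgeR adjusted p = 0.233) and 0.80 in CLP+DCA versus sham (SE 0.25, edgeR adjusted p = 0.288). Without CLP+DCA replicate 3, the values were 0.47 (SE 0.13, edgeR adjusted p = 0.0281) and 0.43 (SE 0.14, edgeR adjusted p = 0.384). Pdgfrb (NCBI Gene 18596) had 3.16, 3.05, 4.69 and 5.58 CPM in sham, 6.59, 5.36, 7.21 and 3.86 CPM in CLP, and 3.48, 3.76, 8.21 and 3.88 CPM in CLP+DCA. Its groups overlapped in every comparison, with a log2 fold change of 0.49 in CLP versus sham (SE 0.31, 95% interval -0.20 to 1.17, edgeR adjusted p = 0.307). The CLP mean of Pdgfrb was 5.75 CPM with CLP replicate 3 and 5.27 CPM without it, against 4.12 CPM in sham.

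Des (NCBI Gene 13346, chromosome 1 from 75360292 to 75368579) had the largest fitted difference of the 9 genes, and 1 mouse set its size. Sham mice had 1.90, 1.71, 2.44 and 2.54 CPM, CLP mice 3.73, 3.93, 172 and 3.32 CPM, and CLP+DCA mice 2.17, 2.96, 5.33 and 1.53 CPM. CLP replicate 3, with 7113 reads on Des against 74 to 162 in the other CLP mice, is the mouse in which all skeletal muscle markers were highest. The mean in CLP was 45.7 ± 84.2 CPM (SD, n = 4) with that mouse and 3.66 ± 0.308 CPM (SD, n = 3) without it, against 2.15 ± 0.407 CPM in sham (SD, n = 4). The log2 fold change fell from 4.42 (SE 1.28, edgeR adjusted p = 0.0710) to 0.77 (SE 0.35, edgeR adjusted p = 0.163). The other 3 CLP mice still lay above every sham mouse. Their muscle marker sums were 4.91 to 7.37 CPM, against 5.22 to 6.17 CPM in sham. Eno3 alone gave 3.54 to 5.19 CPM of the sums in these CLP and sham mice. In CLP replicate 2, 11 of the 15 muscle markers lay above all sham mice, as did Acta1, at 13 reads against 0 or 1. The count was 2 of 15 in CLP replicates 1 and 4. With both replicate 3 septic mice left out, the difference was 0.77 (SE 0.22) and passed the FDR (edgeR adjusted p = 0.0241). An antisense gene shares 220 exonic bases with Des, and the strand setting of the counting is not given in the sources used here, so that reads of the pair cannot be told apart there.

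Acta2 (NCBI Gene 11475, chromosome 19 from 34240336 to 34255373) rested on few reads, between 3 and 375 per mouse. Its levels were 1.34, 0.867, 0.728 and 1.64 CPM in sham, 3.41, 0.144, 9.07 and 1.57 CPM in CLP, and 0.926, 0.571, 0.623 and 0.923 CPM in CLP+DCA. CLP held both the highest value of the 12 mice and the lowest, the latter from 3 reads in replicate 2, and the sham range lay between them. The log2 fold change in CLP versus sham was 1.66 (SE 0.75, edgeR adjusted p = 0.173), and 0.63 (SE 0.64, edgeR adjusted p = 0.516) without CLP replicate 3. The summed level of 7 vascular smooth muscle markers was 21.4 CPM in CLP replicate 3 and 8.53 CPM in CLP replicate 1, the mice with the highest Acta2, against 2.72 to 6.07 CPM in sham and 3.67 to 4.39 CPM in CLP+DCA. In CLP replicate 2, with the lowest Acta2, 3 of the 7 markers (Actg2, Cnn1 and Pln) had no reads. The sum in that mouse was nonetheless 3.97 CPM, within the sham range. Cnn1 also had no reads in sham replicate 2, and neither had Actg2 in sham replicate 3. What vessel wall or muscle RNA contributed to Acta2 and Des was not tested. Actin genes are close to one another in coding sequence, so that some of their reads could have been split between them or discarded.

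**Figure D3:**
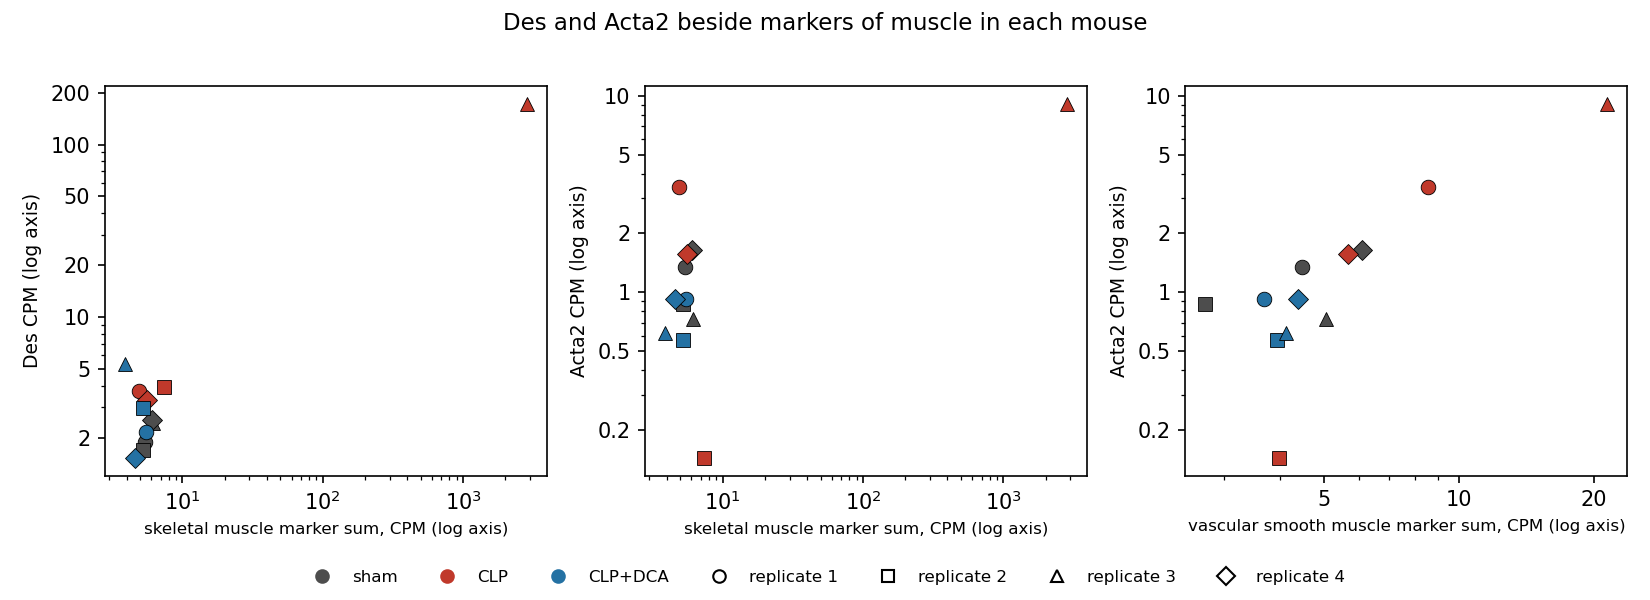
Level of Des and Acta2 in each mouse (y axis, CPM, log axis) against the summed level of 15 skeletal muscle or 7 vascular smooth muscle markers (x axis, CPM, log axis), with color for the group and shape for the replicate. CLP replicate 3 alone lay at 2852 CPM of skeletal muscle markers, and CLP replicates 1 and 3 had the highest smooth muscle sums, 8.53 and 21.4 CPM.

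Set beside sham, the fitted differences of the CLP+DCA mice were smaller than those of the CLP mice for every gene but Lrat. Called in CLP+DCA versus sham were 0 of 9 genes by edgeR's quasi-likelihood test (0.0379% of all genes called), with 2 higher at an unadjusted p under 0.05 (Timp1 and Lrat, against 8.14% of all genes). DESeq2 on all 12 mice called 1 (Timp1, against 1.33% of all genes), while DESeq2 and edgeR on the 8 mice compared and voom called 0, where 0.94%, 0% and 3.76% of all genes were called. The same genes, Timp1 and Lrat, were the 2 of 9 without overlap between the groups, and all 4 CLP+DCA mice were higher in 4.78% of all genes. The mean of Timp1 was 4.33 ± 6.29 CPM in CLP+DCA (SD, n = 4) and 1.19 ± 0.639 CPM (SD, n = 3) without replicate 3, against 0.338 CPM in sham. Its log2 fold change was 3.62 (SE 0.96, edgeR adjusted p = 0.237) and 1.75 (SE 0.55, edgeR adjusted p = 0.367) without that mouse. The other differences lay between -0.59 for Acta2 and 0.57 for Dcn, apart from Lrat. The median over the 9 genes was 0.37 with all mice and -0.13 without CLP+DCA replicate 3.

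Removing CLP+DCA replicate 3 turned the sign of 4 of these differences. Col1a1 went from 0.14 to -0.61, Col1a2 from 0.37 to -0.13, Col3a1 from 0.32 to -0.34 and Pdgfrb from 0.23 to -0.15, none of them past the FDR by edgeR. Without that mouse, Col3a1 lay lower in all 3 CLP+DCA mice (7.22 to 8.84 CPM) than in all 4 sham mice (8.96 to 11.2 CPM), as did 6.47% of all genes. Dcn in the 3 mice was 53.7 ± 2.57 CPM (SD, n = 3) against 51.4 ± 11.2 CPM in sham (SD, n = 4), a log2 difference of 0.07 (SE 0.19). The 3 mice were also close to each other: the SD was 4.79% of the mean for Dcn, 5.56% for Pdgfrb, 9.09% for Lrat and 10.1% for Col3a1.

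Lower in CLP+DCA than in CLP were 8 of 9 genes, of which 0 were called by edgeR's quasi-likelihood test (0.00758% of all genes called). At an unadjusted p under 0.05, 4 were lower (Col1a1, Col1a2, Des and Acta2), where 4.94% of all genes were. Voom called 2 (Col1a1 and Col1a2, against 10.2% of all genes), and DESeq2 on all 12 or on the 8 mice compared and edgeR on the 8 mice called 0, against 0.734%, 0.439% and 0% of all genes. In 0 of 9 genes were the groups free of overlap, against 4.37% of all genes. The median log2 fold change was -1.07, and that of all genes 0.01. The median of the 9 genes was -0.23 without CLP replicate 3 and -1.73 without CLP+DCA replicate 3. Col1a1 had a mean of 9.59 ± 7.35 CPM in CLP and 3.25 ± 2.66 CPM in CLP+DCA (SD, n = 4 per group), with a difference of -1.56 on the log2 scale (SE 0.59, edgeR adjusted p = 0.422). The values were -1.10 for Col1a2 (SE 0.46), -1.07 for Col3a1 (SE 0.66), -2.24 for Acta2 (SE 0.78) and -3.93 for Des (SE 1.24). For Des, the size came from CLP replicate 3, since the difference without it was -0.28 (SE 0.35, edgeR adjusted p = 0.765). Without CLP replicate 3, Col1a1 was at -0.94, Col1a2 at -0.56, Col3a1 at -0.23 and Acta2 at -1.21, each still lower in CLP+DCA.

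Leaving out CLP+DCA replicate 3 brought 2 of the 9 genes past the FDR in the comparison of DCA-treated with untreated septic mice. Timp1 went from -0.18 (SE 0.81) to -2.04 (SE 0.50), and Col1a1 from -1.56 to -2.32 (SE 0.56), and both then passed the FDR (edgeR adjusted p = 0.0434 and 0.0452, with 4.64% of all genes called). In 5 of 9 genes (Timp1, Col1a1, Col1a2, Des and Dcn) the 3 remaining CLP+DCA mice lay below all 4 CLP mice, as they did in 10.4% of all genes. For Timp1 the 3 mice had 0.706 to 1.92 CPM and the CLP mice 2.604 to 6.70 CPM, still above the highest sham value of 0.594 CPM. With both replicate 3 septic mice left out, 4 genes were called lower (Timp1, Col1a1, Col1a2 and Dcn), and 16.9% of all genes were called. Lrat differed by 0.33 (SE 0.25) with all mice and by -0.04 (SE 0.14) without CLP+DCA replicate 3. The comparisons of CLP+DCA with sham and with CLP share the CLP+DCA mice, so that this mouse moved both at once.

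**Figure D4:**
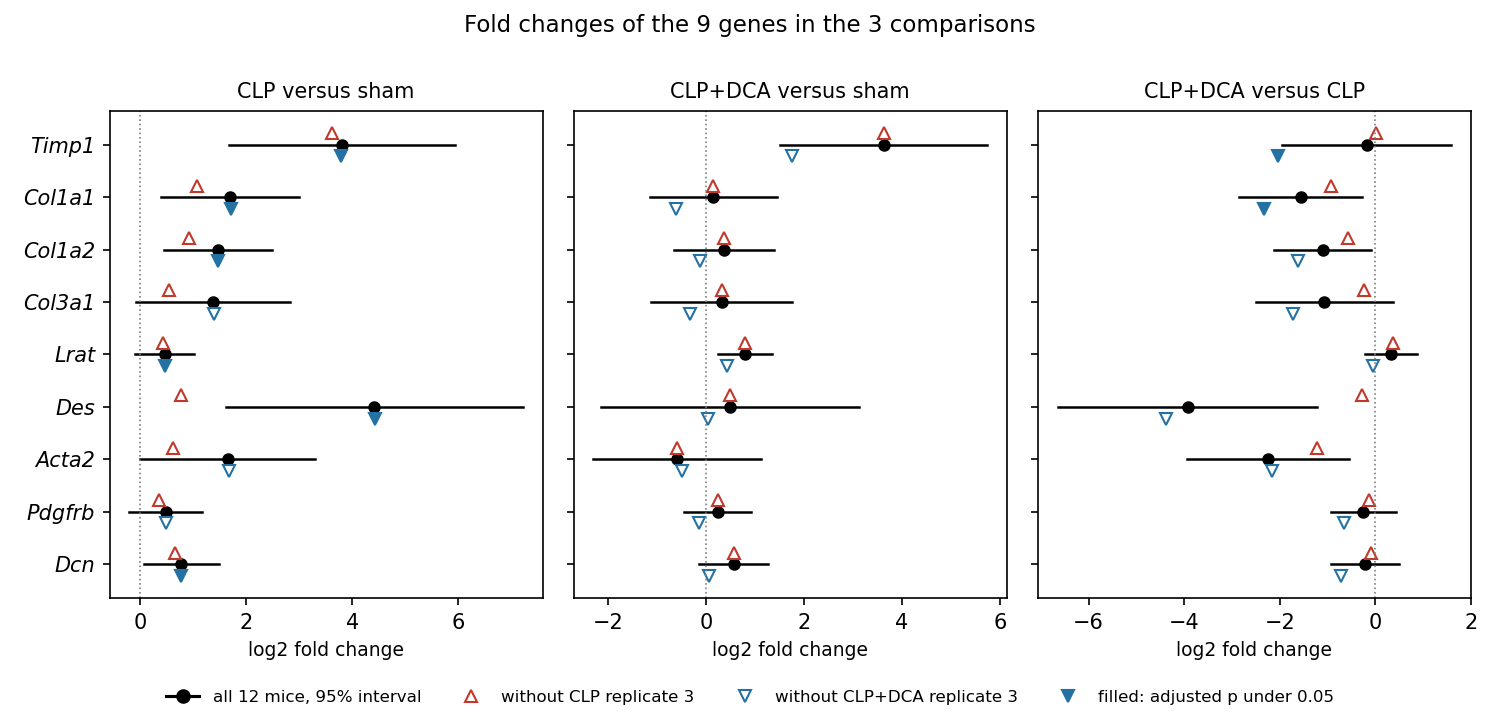
Log2 fold change of each gene in the 3 comparisons, with black points and 95% intervals for all 12 mice, upward triangles without CLP replicate 3 and downward triangles without CLP+DCA replicate 3, filled where the adjusted p was under 0.05. Des moved from 4.42 to 0.77 in CLP versus sham without CLP replicate 3, and Timp1 from -0.18 to -2.04 in CLP+DCA versus CLP without CLP+DCA replicate 3.

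Per kb of exon, Dcn was the most abundant transcript of the list in every group, at 26.5 ± 5.79 CPM per kb in sham (SD, n = 4), above the next, Col3a1, at 1.83 ± 0.179, without overlap. Lrat followed at 1.35 ± 0.195 and Col1a2 at 0.885 ± 0.0892. Pdgfrb overlapped Col1a2, and the last 5 lay close together: Pdgfrb at 0.752 ± 0.224, Des at 0.709 ± 0.134, Acta2 at 0.562 ± 0.208, Col1a1 at 0.500 ± 0.124 and Timp1 at 0.381 ± 0.247 CPM per kb, neighbours whose ranges overlapped. In CLP, Timp1 moved from the last place to the third, at 5.57 ± 2.33 CPM per kb, after Dcn at 45.5 ± 9.85 and Des at 15.1 ± 27.8, whose mean rested on replicate 3. By medians, the CLP order was Dcn (45.9), Timp1 (5.91), Col3a1 (3.62), Col1a2 (2.06) and Lrat (1.99 CPM per kb). Without replicate 3 it was Dcn (40.9), Timp1 (4.30), Col3a1 (2.36), Lrat (1.95) and Col1a2 (1.65 CPM per kb), and from Timp1 on the ranges of neighbours overlapped. In CLP+DCA the medians were highest for Dcn (28.3), Lrat (1.89), Timp1 (1.62) and Col3a1 (1.53 CPM per kb), the last 3 with overlapping ranges.

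Likeness between patterns was measured as the root mean square difference of log2 CPM over the 12 mice, each gene taken relative to its sham mean. Within the list, Lrat and Dcn (0.28), Pdgfrb and Dcn (0.30) and Col1a1 and Col1a2 (0.32) were closest, and Timp1 was no closer than 2.21 to any other. Among all tested genes, those most like Col1a1 were Col1a2 (0.32), the collagen-crosslinking enzyme gene Loxl1 (0.36) and the gelatinase gene Mmp2 (0.42), where the median gene was at 1.15. Most like Timp1 were Itgam (0.80), a leukocyte integrin, Lcn2 (0.82), an iron-binding defence protein, and Atp6v0a4 (0.83), a proton pump subunit, with a median gene at 2.88. Most like Des were the muscle genes Ankrd23 (0.42), Slc25a4 (0.54) and Fhl1 (0.57), with a median gene at 1.93. Ankrd23 had 161 CPM in CLP replicate 3 and 2.14 to 3.83 CPM in the other 11 mice. These are descriptions of 12 mice, and for Des they rest on CLP replicate 3.

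The wider program was followed in 5 lists with 132 genes in all, and 120 of them were tested. Between CLP and sham, edgeR's quasi-likelihood test called 0 of 17 genes of stellate cell identity, 1 of 27 fibrogenic signals and receptors, 0 of 31 matrix proteins, 3 of 32 genes of matrix remodelling and collagen processing, and 0 of 13 contractile genes, where 2.78% of all genes were called. At an unadjusted p under 0.05, 5, 8, 10, 14 and 4 of them differed in this order, all higher except 2 signal genes. That made 41 of 120, where 28.6% of all genes differed. The median log2 fold changes were 0.37, 0.19, 0.58, 0.49 and 0.56 with all mice, and 0.28, 0.21, 0.40, 0.47 and 0.089 without CLP replicate 3, beside 1.47 and 0.66 for the 9 genes. In CLP+DCA versus sham and in CLP+DCA versus CLP the edgeR test called 0 of the 120, where 0.0379% and 0.00758% of all genes were called. At an unadjusted p under 0.05, 21 and 3 of them were higher in turn, where 8.14% and 5.06% of all genes were. Lower were 3 and 12, where 4.85% and 4.94% of all genes were. DESeq2 on all 12 mice called 5 and 1, where 1.33% and 0.734% of all genes were called. On the 8 mice compared, DESeq2 called 2 and 0 (0.94% and 0.439% of all genes) and edgeR 0 and 0 (0% and 0%). Voom called 6 and 26, where 3.76% and 10.2% of all genes were called.

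Of the 4 genes called, Smad7, the inhibitory SMAD that dampens TGF-beta signalling, fell in CLP. It had 13.02 to 13.9 CPM in the sham mice, 5.54 to 6.71 CPM in CLP, and 5.81, 8.94, 13.8 and 8.72 CPM in CLP+DCA. The CLP values lay far below those of sham, and only CLP+DCA replicate 3 reached the sham range. The log2 fold change in CLP versus sham was -1.12 (SE 0.20, edgeR adjusted p = 0.0257). Bmp1, which cleaves procollagen, rose from 118 to 127 CPM in sham to 150 to 178 CPM in CLP (log2 fold change 0.43, SE 0.09, edgeR adjusted p = 0.0415). Mmp9, a gelatinase abundant in neutrophils, rose by 2.38 on the log2 scale (SE 0.54, edgeR adjusted p = 0.0461) from 0.347 to 0.744 CPM to 1.75 to 3.63 CPM. A2m, a broad protease inhibitor of plasma, rose by 12 on the log2 scale (SE 2.56, edgeR adjusted p = 0.0412), from 0.248 to 0.383 CPM in sham to 191 to 2345 CPM in CLP. Leaving out any 1 sham mouse, or CLP replicate 1, 2 or 4, left 0 of these calls, where 0.0749% to 0.594% of all genes were called. Leaving out CLP+DCA replicate 3 raised the number called from 4 to 45, while the share of all genes called went from 2.78% to 23.8%.

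Genes with the smallest p of the other lists stayed short of the FDR. Fn1, fibronectin, had mean levels of 1957, 4402 and 3318 CPM in sham, CLP and CLP+DCA, with a log2 fold change in CLP versus sham of 1.17 (SE 0.29, edgeR adjusted p = 0.0541). Col4a2 of the basement membrane was at 1.59 (SE 0.42, edgeR adjusted p = 0.0604), and the matricellular gene Ctgf at 1.83 (SE 0.53, edgeR adjusted p = 0.0720). S100a6 and Tpm1 of the contractile list were at 1.94 (SE 0.48) and 1.51 (SE 0.42), with edgeR adjusted p = 0.0529 and 0.0691, and Tpm1 stood at 151 CPM in CLP replicate 3 against 38.5 to 47.6 CPM in the other CLP mice. The stellate genes Vipr1 and Hand2 were at 0.52 (SE 0.13) and 0.58 (SE 0.23), with edgeR adjusted p = 0.0554 and 0.130. The summed level of the 18 stellate identity genes was 112 to 195 CPM in sham, 155 to 206 CPM in CLP and 143 to 218 CPM in CLP+DCA, ranges that overlap.

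**Figure D5:**
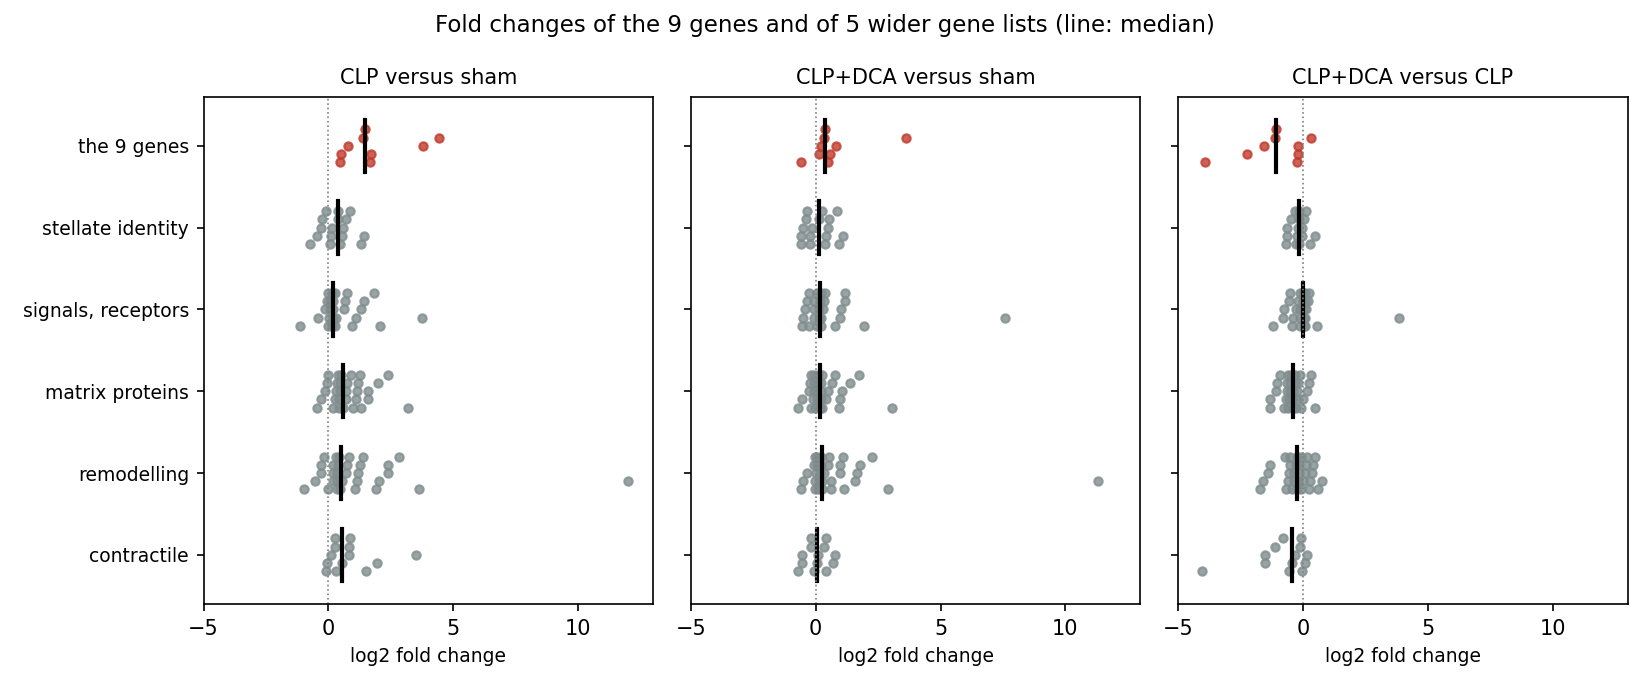
Log2 fold change of each tested gene of the 9-gene list and of 5 wider lists in the 3 comparisons, with a line at the median. The medians in CLP versus sham were 1.47 for the 9 genes (0.66 without CLP replicate 3) and 0.19 to 0.58 for the wider lists (0.089 to 0.47), and A2m lay farthest to the right at 12.

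Marker sums of hepatocytes, liver endothelium and neutrophil-associated genes also separated sham from CLP, whereas Kupffer cell sums overlapped. Summed hepatocyte markers were 66074 to 86672 CPM in sham and 29418 to 48787 CPM in CLP, with 2 of 10 genes called lower by edgeR, where 2.78% of all genes were called in either direction. Liver endothelium markers summed to 143 to 183 CPM in sham and 186 to 222 CPM in CLP, with 1 of 10 genes (Stab1) called higher. Kupffer cell markers summed to 207 to 346 and 323 to 414 CPM, with 0 of 10 called by edgeR. Of the Kupffer cell markers, 1 was higher at an unadjusted p under 0.05, where 15.5% of all genes were. Neutrophil-associated genes were called in 2 of 9 tested, both higher. At an unadjusted p under 0.05, 8 were higher and 1 lower, where 15.5% and 13.1% of all genes were. The lower gene was Ly6g, at 0.669 to 1.04 CPM in sham and 0.269 to 0.701 CPM in CLP (log2 fold change -0.78). It was also lower in CLP+DCA versus sham, by -0.98. The part of these shifts in the levels of the 9 genes was not tested.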

How the data were processed

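RNA of 12 whole mouse livers was prepared by the authors as poly(A)-enriched libraries and sequenced at 100 bp. Per the submitters' processing notes, alignment to mm10 used STAR 2.5 and gene-level counting used featureCounts (Subread 1.5.0-p1). The authors deposited unnormalized counts for 25611 genes. The gene annotation and the strand setting are not given in the sources used here. The authors tested genes with DESeq2.

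From the deposited counts, genes were compared in R 4.3.3 with edgeR 4.0.16 (filterByExpr with a minimum count of 10, TMM, robust quasi-likelihood fit of all 12 mice, Benjamini-Hochberg over 13190 genes, FDR 0.05), after tests on simulated data. Each SE was derived from the fold change and the F statistic. Alternatives were DESeq2 1.42.0 and voom (limma 3.58.1), edgeR and DESeq2 on the 8 mice compared, other scalings and filters, the replicate number as a block, leaving out each mouse, and two-sided exact permutation tests on log2 CPM (prior count of 2). Leaving out both replicate 3 septic mice was added after seeing the data. Depth was 24436513 to 44266819 reads per mouse. The libraries carried no molecular identifiers, and repeated reads of 1 molecule could not be removed.

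Exon lengths came from protein-coding transcripts of GENCODE M21 and promoters from RefSeq (GRCm38.p6). The 9 genes, the wider lists and the marker lists were chosen from general knowledge with earlier results of these data known. Named are the 9 genes, the 2 genes of each wider list with the smallest p in CLP versus sham, up to 4 genes past the FDR, the 2 most abundant markers of each marker list where a result turned on them, and the 3 genes most like Timp1, Col1a1 and Des. Replicate numbers do not pair the mice across groups.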

Additional observations from a re-analysis of the deposited data

Results flagged for a closer look

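In 7 of the 27 groups of 4 mice tested (9 genes in 3 groups), 1 mouse lay far from the other 3 of its group, with a gap to its nearest neighbour that took a share of the group's whole range past Dixon's 95% critical value for 4 samples. Chance alone gives this in about 1 in 20 groups of independent, normally distributed values. The 9 genes were measured in the same 12 mice, so that the 27 groups are not independent and 7 of 27 cannot be set against that rate. In 6 of the 7, the mouse was CLP+DCA replicate 3 and it was the highest. Timp1 had 13.7 CPM there, against 0.706 to 1.92 CPM in the other CLP+DCA mice. Dcn had 143 CPM (others 51.3 to 56.5 CPM), Col3a1 26.5 CPM (7.22 to 8.84), Col1a2 11.5 CPM (3.56 to 4.82), Lrat 21.2 CPM (8.94 to 10.7) and Pdgfrb 8.21 CPM (3.48 to 3.88). Acta2 was the only gene of the 9 that was not highest in that mouse within its group. In the remaining case, Des had 172 CPM in CLP replicate 3 and 3.32 to 3.93 CPM in the other CLP mice.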

How the results depend on the processing

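With all 12 mice, edgeR called 0, 0 and 0 of the 9 genes for CLP against sham and for CLP+DCA against sham and against CLP, and 4, 0 and 0 genes of the wider lists. Of all genes, 2.78%, 0.0379% and 0.00758% were called in turn. In CLP versus sham the 9 genes gave 3 calls with DESeq2 on all mice, 5 with DESeq2 and 3 with edgeR on the 8 mice compared, and 6 with voom. The wider lists gave 24, 48, 31 and 45, where 10.2%, 18.8%, 18.3% and 26.2% of all genes were called. The same lists gave 2 with library size alone and 1 without a filter, where 1.58% and 0.647% of all genes were called. In CLP+DCA versus sham, DESeq2 on all mice called 1 of the 9 genes and 5 of the wider lists, DESeq2 on the 8 mice 2 and voom 6 of the latter. Of all genes, 1.33%, 0.94% and 3.76% were called in these settings. In CLP+DCA versus CLP, voom called 2 and 26, and DESeq2 on all mice 1 of the wider lists, where 10.2% and 0.734% of all genes were called.

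Leaving out single mice gave 0 to 6 calls among the 9 genes in CLP versus sham (1 without CLP+DCA replicate 4, 6 without CLP+DCA replicate 3) and 0 to 45 in the wider lists, with 7 without CLP replicate 3. The share of all genes called ran from 0.0749% without sham replicate 3 to 23.8% without CLP+DCA replicate 3. It was 7.46% without CLP replicate 3 and 3.92% without CLP+DCA replicate 4. In CLP+DCA versus CLP, leaving out single mice gave 0 to 2 and 0 to 21. The highest counts came without CLP+DCA replicate 3, where 4.64% of all genes were called. Without both replicate 3 septic mice the counts were 6 and 39 in CLP versus sham and 4 and 28 in CLP+DCA versus CLP. Of all genes, 31.1% and 16.9% were called in those fits. RLE scaling and the stricter filter kept all 9-gene counts at 0, but 1 of the 9 genes did not pass that filter. In CLP versus sham, 2.7% and 3.52% of all genes were called in these 2 settings.

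The sign of small differences turned under some settings. In CLP+DCA versus sham, voom gave -0.49 for Col1a1, -0.21 for Col3a1 and -0.018 for Pdgfrb, and the permutation test on log2 CPM -0.13 for Col1a1. Leaving out single mice gave -0.61 to 0.40 for Col1a1, -0.13 to 0.56 for Col1a2, -0.34 to 0.51 for Col3a1 and -0.15 to 0.41 for Pdgfrb, the lowest without CLP+DCA replicate 3, and leaving out both replicate 3 septic mice gave -0.61, -0.13, -0.33 and -0.15. In CLP+DCA versus CLP, Lrat was at -0.065 with voom, -0.042 to 0.46 without single mice and -0.0038 without both, and Timp1 ranged from -2.04 without CLP+DCA replicate 3 to 0.17 without CLP+DCA replicate 2. The causes were not tested.

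Same-numbered mice of different groups did not deviate together as a rule (correlations from -0.46 to 0.55, the highest for replicate 1 of CLP and CLP+DCA). With the replicate number as a block, the 9 genes gave 0 calls in every comparison, the wider lists 0 in CLP versus sham, and Col1a1 and Col3a1 in CLP+DCA versus sham were at -0.25 and -0.039. Of all genes, 0.349% were called with that block in CLP versus sham, 0% in CLP+DCA versus sham and 0.0303% in CLP+DCA versus CLP. An exact permutation test of 4 against 4 mice cannot go below p = 0.0286.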

Other observations

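The values given here were chosen after they were seen. A2m was at 3011 CPM in CLP+DCA replicate 3, against 5.06 to 18.5 CPM in the other CLP+DCA mice. Tpm2, a tropomyosin of muscle and of contractile cells, had 155 CPM in CLP replicate 3 and 1.06 to 5.94 CPM in the other 11 mice. The mesothelial gene Msln stood at 3.39 CPM and the fibroblast gene Clec3b at 2.83 CPM in that mouse, against 0.180 to 1.88 CPM and 0 to 0.599 CPM in the others. In CLP+DCA replicate 3 the contractile genes Acta2 and Tagln were at 0.623 and 2.03 CPM, below the sham ranges of 0.728 to 1.64 CPM and 3.94 to 4.49 CPM, whereas Col1a1 was above its sham range. Acta2 had 23 reads in that mouse and 23 in sham replicate 3, and it was lower still in CLP+DCA replicate 2, at 0.571 CPM.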
